A study of Homo sapiens with 20 samples.

Results

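LNCaP cells held in early G1 with the CDK4/6 inhibitor PD-0332991 were compared with LNCaP cells given no arresting drug, with the androgen dihydrotestosterone (DHT) present in both. The members were the arrays titled early G1 arrested and those titled CDT+DHT treated, 6 of the 20 arrays of the series. In the early G1 group (n = 3), cells grew in hormone-proficient medium, were given 0.5 µM PD-0332991 for 24 h and received 10 nM DHT during the final 3 h. In the CDT+DHT group (n = 3), cells spent 72 h in the medium that the labels call CDT and received DHT during the final 3 h, with no drug. The treatment protocol gives 10 nM DHT for all groups with the hormone. Drug and medium therefore differ together between the 2 groups and cannot be told apart. The series also held late G1 (roscovitine, n = 3), early S (aphidicolin, n = 2), late S (hydroxyurea, n = 3) and G2/M (aphidicolin, then nocodazole, n = 3) arrests, all with DHT in the hormone-proficient medium, and a CDT group with ethanol in place of DHT (n = 3). The phases are those of the labels, which name none for CDT+DHT and CDT, and no arrested cells free of DHT were analysed here. LNCaP is 1 established prostate cancer line, and nothing in the labels tells if replicates came from separate cultures. The p-values therefore measure the spread between these arrays, which may be technical.

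PD-0332991, also called palbociclib, blocks CDK4 and CDK6, the kinases that D-type cyclins activate in G1. These kinases phosphorylate the RB protein, which otherwise holds E2F factors in check, and E2F factors switch on the genes of DNA replication and of later phases. DHT binds the androgen receptor, a nuclear receptor that in prostate cells switches on the kallikreins and genes of lipid synthesis. The study set out to follow the response to DHT at different points of the cell cycle.

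Levels are log2(intensity + 1), so that 1 unit is a factor of 2 for bright genes, and the change of dim ones is understated. Differences are early G1 minus CDT+DHT unless another pair is named, ± SE from 1 limma fit over all 20 arrays and 18417 genes, and adjusted p-values are those of Benjamini and Hochberg. With 3 arrays against 3 the smallest p of an exact permutation test is 0.1, and no such test was run. Over the 3305 genes with a mean above 5 on all 20 arrays, the early G1 arrays correlated with each other at 0.663 to 0.829 and the CDT+DHT arrays at 0.884 to 0.95, while pairs across the 2 groups correlated at 0.512 to 0.87. Genes are not independent replicates. Early G1 replicate 2 and CDT+DHT replicate 3 stood apart from the other arrays of their groups on the axis that held 29.1% of the variance within groups. CDT+DHT replicate 3 also had the most features below an intensity of 1, 23.0%, against 9.35% to 16.9% in early G1 and at most 12.1% in the other CDT+DHT arrays. Early G1 replicate 1 had the lowest correlations, 0.663 with replicate 2 and 0.512 to 0.665 with the CDT+DHT arrays, though 0.829 with replicate 3. Early G1 replicate 2 correlated at 0.82 with replicate 3 and at 0.817 to 0.847 with CDT+DHT. Leaving out both arrays that stood apart, as done below, keeps early G1 replicate 1. In early G1 the spread was wider, with a median SD of 0.54 over genes brighter than 7, against 0.24 in CDT+DHT.

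Luminal prostate markers were measured in both groups. The kallikrein KLK3 (mean 10.07 in early G1 and 8.76 in CDT+DHT), the lineage factors FOXA1 (6.63 and 7.47) and HOXB13 (6.39 and 7.35) and the luminal keratin KRT8 (6.21 and 6.80) were among the brighter genes. The 8 basal markers measured had mean levels of at most 4.67 in early G1 and 4.73 in CDT+DHT. Their summed intensity was 50.9 to 86.8 in early G1 and 75.7 to 91.6 in CDT+DHT. That of the 13 luminal markers was 1571.3 to 3196.0 in early G1 and 1175.0 to 1739.6 in CDT+DHT, and sums over different probes are not comparable with each other. Bright genes such as KLK3 weigh most in a sum. Of the 13 luminal markers, 8 had a mean of at least 5 over the 6 arrays. Only 6 were higher in early G1, and the median difference was -0.09. The 18 leukocyte markers summed to at most 162.6 in early G1 and 166.0 in CDT+DHT. CD3D, which defines T cells, had means of 0.84 in early G1 and 0.27 in CDT+DHT, and PTPRC, which all leukocytes carry, 2.83 and 1.29. The 20 stromal markers summed to 219.5 to 323.2 in early G1 and 355.8 to 424.3 in CDT+DHT, with the endothelial cadherin CDH5 (6.85 and 7.29) and fibronectin, FN1 (5.44 and 6.37), as the brightest. The part of the stromal sum in the results below was not tested.

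No gene passed the threshold of 0.05 in early G1 against CDT+DHT (limma, 0 of 18417 genes, 0%), and the smallest adjusted p was 0.289. Without adjustment 1486 genes (8.07%) had p below 0.05, 962 of them higher in early G1 (5.22%) and 524 lower (2.85%). All 3 early G1 arrays lay above all 3 CDT+DHT arrays for 1319 genes (7.16%) and below them for 1604 (8.71%). A difference above 0 was found in 48.9% of all genes, with a median of -0.03. Among the 3266 genes with a mean of at least 5 over the 6 arrays, 35.2% lay above 0, and 122 (3.74%) were higher and 159 (4.87%) lower at an unadjusted p below 0.05. All differences that follow are therefore values and not calls, read against these shares. In bulk RNA, fewer cells with a transcript and less of it per cell cannot be told apart.

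Among the brighter genes with the smallest p, the clearest difference was in CLU, the gene of the secreted chaperone clusterin. CLU measured 3.92, 3.36 and 4.88 in the early G1 arrays, against 6.83, 7.12 and 6.71 in the CDT+DHT arrays. The groups stood apart by a wide gap, and the difference was -2.84 ± 0.50 (adjusted p = 0.289). CLU passed when array medians were subtracted (adjusted p = 0.045), when dim genes were left out (0.0418), with a trended and robust prior (0.0157), with array weights (0.0177) and with a pseudocount of 16 (0.00907). GATA2, a transcription factor that works beside the androgen receptor in prostate cells, measured 3.47, 4.15 and 5.47 in early G1, against 6.81, 6.54 and 6.58 in CDT+DHT. Its difference was -2.28 ± 0.51 (adjusted p = 0.422), with no overlap and a wider spread in early G1.

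PLA2G2A, a secreted phospholipase, measured 6.41, 4.77 and 7.03 in early G1, against 8.90, 8.63 and 8.05 in CDT+DHT. SELENBP1, a selenium-binding protein, measured 6.66, 7.68 and 8.29 in early G1, against 9.81, 9.16 and 9.09 in CDT+DHT. The differences were -2.46 ± 0.56 and -1.81 ± 0.46 (adjusted p = 0.441 for both), and every early G1 array lay below every CDT+DHT array. TIMP2, an inhibitor of matrix metalloproteinases, differed by -1.80 ± 0.47, EEIG1 by -1.82 ± 0.48, NIPSNAP3A by -2.22 ± 0.59 and CLSTN1, a calsyntenin, by -1.70 ± 0.49. IFI6, an interferon-inducible gene, differed by -1.74 ± 0.49. FTH1P5, a ferritin pseudogene, differed by -1.54 ± 0.43, and its probes may share sequence with the ferritin heavy chain gene, so that its identity is uncertain. The adjusted p of these 10 genes lay between 0.289 and 0.456. With the pseudocount of 16, CLU, GATA2, PLA2G2A, SELENBP1, TIMP2 and FTH1P5 passed as lower in early G1, together with ID3, NFKBIA and ALDH2 (chosen, like CDH5, after its value had been seen), and no gene passed as higher.

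**Figure D1:**
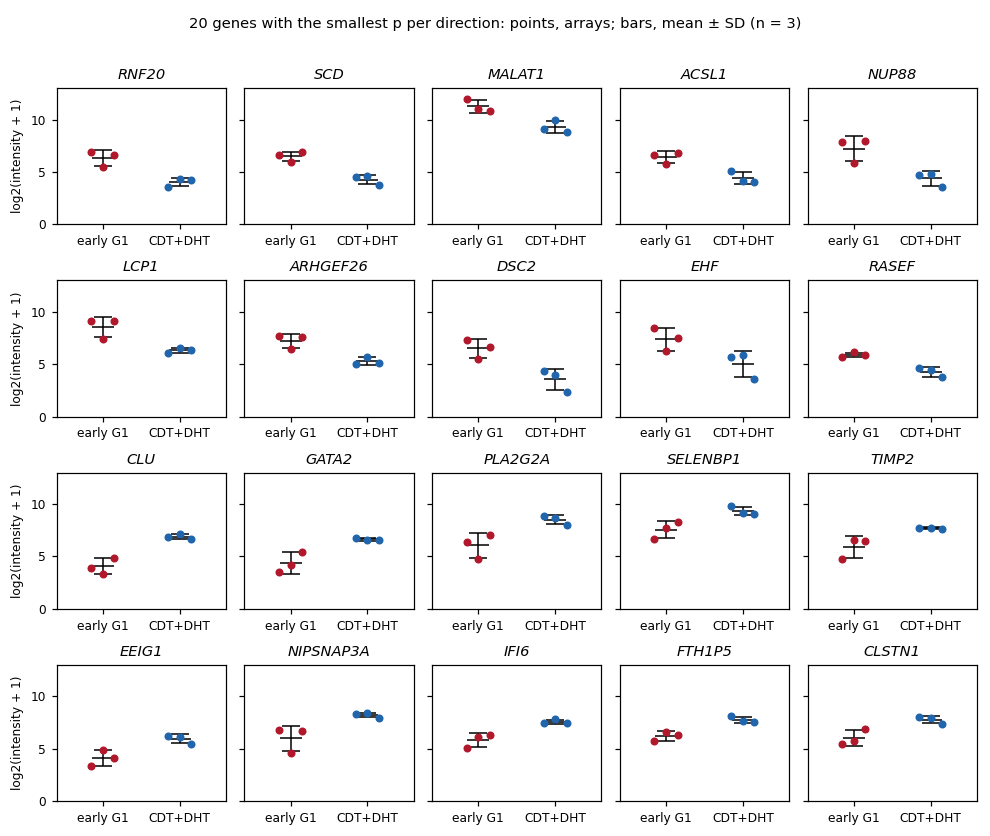
Levels of the 20 brighter genes with the smallest p, 10 in each direction (log2(intensity + 1)) in early G1 (red, left) and CDT+DHT (blue, right), with points for arrays and bars for the mean ± SD (n = 3). The arrays do not overlap in any panel, which the choice of genes required, as in CLU (3.36 to 4.88 in early G1, against 6.71 to 7.12 in CDT+DHT).

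In the other direction, SCD, the desaturase that makes monounsaturated fatty acids, measured 6.60, 5.98 and 6.87 in early G1, against 4.49, 4.57 and 3.76 in CDT+DHT. RNF20, a ubiquitin ligase for histone H2B, measured 6.88, 5.46 and 6.64 in early G1, against 3.57, 4.32 and 4.21 in CDT+DHT. The differences were 2.21 ± 0.58 for SCD and 2.29 ± 0.58 for RNF20 (adjusted p = 0.441 for both), without overlap. MALAT1, a long noncoding RNA kept in the nucleus, measured 11.96, 11.02 and 10.78 in early G1, against 9.08, 9.99 and 8.84 in CDT+DHT, a difference of 1.95 ± 0.53 (adjusted p = 0.456). Here too the lowest early G1 array lay above the highest CDT+DHT array.

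ACSL1, which activates long-chain fatty acids, differed by 2.01 ± 0.56, and NUP88, a nuclear pore protein, by 2.84 ± 0.84. LCP1, the actin-bundling plastin that prostate cancer cells express, differed by 2.22 ± 0.66, the desmosomal cadherin DSC2 by 2.95 ± 0.91 and EHF, an epithelial ETS factor, by 2.36 ± 0.76. ARHGEF26 differed by 1.98 ± 0.60 and RASEF, a Rab-family GTPase, by 1.61 ± 0.53. Among the 10 genes, the lowest early G1 value was that of replicate 2 except in MALAT1 and RASEF, and the lowest CDT+DHT value was that of replicate 3 except in RNF20, LCP1 and ARHGEF26. The adjusted p of these 10 genes lay between 0.441 and 0.531.

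Set beside the other 4 arrests, which share the medium and DHT with early G1 but not the drug, the same genes had smaller differences in early G1. For the 10 genes higher in early G1, early G1 minus the mean of the other arrests was between -0.59 and 0.71, and the other arrests also lay above CDT+DHT in 10 of 10. RNF20 differed by 0.04 ± 0.46 from the other arrests, while the other arrests minus CDT+DHT was 2.25 ± 0.46, a rise that passed (adjusted p = 0.0454). DSC2 rose as well in the other arrests against CDT+DHT (3.54 ± 0.72, adjusted p = 0.0454). The CDT group, in the medium of CDT+DHT but without DHT, also lay above CDT+DHT in 10 of these 10 genes (and lay below it in 8 of the 10 genes lower in early G1), as in RNF20 (CDT+DHT minus CDT -2.04 ± 0.58) and DSC2 (-2.11 ± 0.91). Each of these comparisons shares the arrays of CDT+DHT or of early G1 with the first, so they are not independent of it. The genes were chosen for their gap to these same CDT+DHT arrays, which in itself favours other groups on the same side of CDT+DHT. The share of all genes in such an order was not counted.

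Among the genes lower in early G1, early G1 minus the other arrests was between -1.77 and 0.24, with IFI6 at -0.92 and GATA2 at -0.78. PLA2G2A lay at -0.03 ± 0.45 from the other arrests, and it fell in the other arrests against CDT+DHT by 2.43 (adjusted p = 0.0359). SELENBP1, TIMP2 and NIPSNAP3A also fell there, by 2.05, 2.03 and 2.42 (adjusted p = 0.0359, 0.0359 and 0.0375). The passing calls in the other arrests were 55 of 18417 genes (0.299%), 36 higher (0.195%) and 19 lower (0.103%), and 0 passed without any 1 of the 3 CDT+DHT arrays or without early S replicate 1. CLU had another pattern. Its mean was 4.05 ± 0.77 in the early G1 arrest (SD, n = 3) and 3.95 ± 0.34 in the late G1 arrest, and 6.46 ± 0.06 in early S (n = 2), 6.16 ± 0.49 in late S, 6.69 ± 0.38 in G2/M, 6.89 ± 0.21 in CDT+DHT and 6.27 ± 0.63 in CDT. CLU was thus at a low level on the arrays of both G1 arrests and at a high one in the other 5 groups. Early G1 minus the mean of the other 4 arrests was -1.77 ± 0.40 for CLU (adjusted p = 0.622), where 0 of 18417 genes passed (0%) and 455 (2.47%) had an unadjusted p below 0.05.

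**Figure D2:**
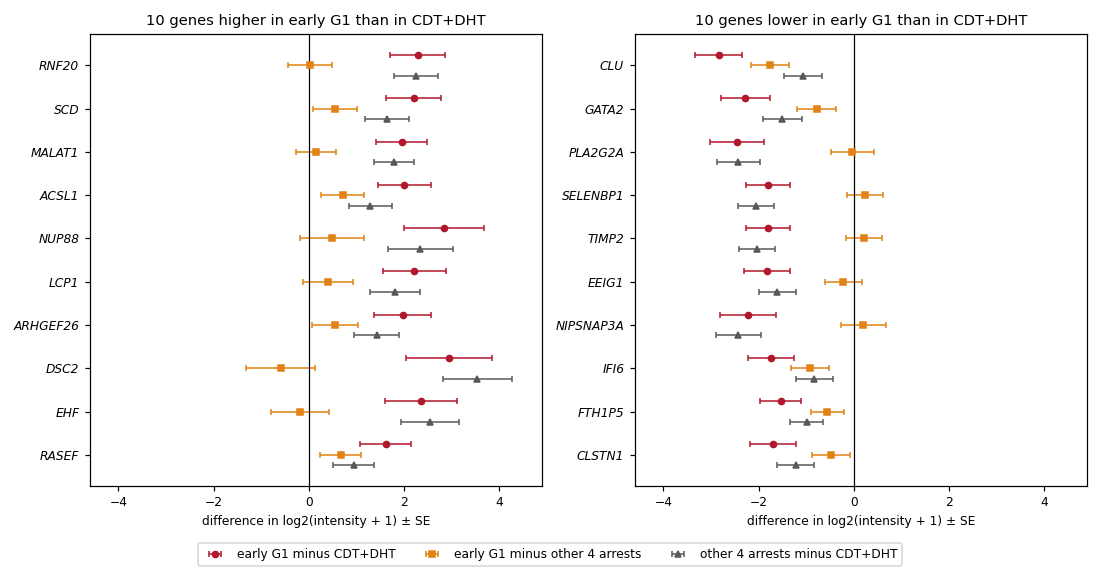
Differences in log2(intensity + 1) ± SE of the same 20 genes for early G1 minus CDT+DHT (red circles), early G1 minus the mean of the other 4 arrests (orange squares) and the other 4 arrests minus CDT+DHT (grey triangles). The orange squares lie close to 0 in some genes, as in RNF20 (0.04) and PLA2G2A (-0.03). Others lie farther away, as in ACSL1 (0.71), GATA2 (-0.78) and IFI6 (-0.92), and CLU lies farthest (-1.77). The comparisons share arrays.

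The list of androgen-induced genes had 40 entries, of which 34 could be tested, and 29 of the 34 lay above 0 in early G1 against CDT+DHT. Their median difference was 0.93, beside -0.03 for all genes, and with a pseudocount of 16 it was 0.46, beside -0.01. At an unadjusted p below 0.05, 11 were higher and 0 lower (5.22% and 2.85% of all genes), and the arrays did not overlap in 13 that were higher and 0 that were lower (7.16% and 8.71%). None passed the adjusted threshold. With each of the 6 arrays left out in turn, the median lay between 0.54, without early G1 replicate 3, and 1.28, without early G1 replicate 2. Without both arrays that stood apart the median was 0.97, and 26 of 34 lay above 0.

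The kallikreins are the best-known targets on this list. KLK3, which encodes prostate-specific antigen, measured 9.66, 9.69 and 10.85 in early G1, against 8.96, 8.73 and 8.59 in CDT+DHT. KLK2, its neighbour and close paralogue, measured 8.27, 8.61 and 9.29 in early G1, against 8.12, 7.76 and 7.81 in CDT+DHT. The groups did not overlap in either gene, though only narrowly in KLK2, and the differences were 1.31 ± 0.50 for KLK3 (adjusted p = 0.563) and 0.83 ± 0.42 for KLK2 (adjusted p = 0.63). For comparison, 3 h of DHT in the CDT medium gave 1.18 ± 0.50 for KLK3 (adjusted p = 0.696) and 2.15 ± 0.42 for KLK2 (adjusted p = 0.654), and 0 of 18417 genes passed there (0%), with 1263 (6.86%) below an unadjusted p of 0.05. CDT averaged 7.57 ± 0.91 for KLK3 and 5.75 ± 0.10 for KLK2 (SD, n = 3). The means of the other 4 arrests ran from 9.22 to 9.52 for KLK3 and from 7.88 to 8.62 for KLK2, between early G1 and CDT+DHT except for KLK2 in G2/M. Cross-hybridisation between the 2 kallikreins was not tested.

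The regions before the starts of both genes are shown because they share letters of the form known as an androgen response element, the kind of site that the androgen receptor binds. They are the 250 bases before the gene start, from RefSeq on GRCh38.p14, both on the plus strand, KLK3 at chr19:50854665-50854914 and KLK2 at chr19:50873189-50873438. Capitals mark the letters GAACA, any 3 bases and AGTGCT, searched on both strands and chosen after the sequences had been seen. The match starts at -169 in KLK3 and at -175 in KLK2, counted from the gene start.
KLK3: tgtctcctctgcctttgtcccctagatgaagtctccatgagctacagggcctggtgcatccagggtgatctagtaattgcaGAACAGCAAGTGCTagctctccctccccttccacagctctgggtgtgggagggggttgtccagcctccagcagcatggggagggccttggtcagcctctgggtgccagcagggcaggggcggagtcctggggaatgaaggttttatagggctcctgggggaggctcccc
KLK2: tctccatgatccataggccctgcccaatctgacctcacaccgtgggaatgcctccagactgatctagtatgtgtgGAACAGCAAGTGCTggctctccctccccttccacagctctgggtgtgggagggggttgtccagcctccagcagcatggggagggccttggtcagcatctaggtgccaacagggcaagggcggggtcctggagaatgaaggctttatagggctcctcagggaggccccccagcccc
These letters stood in 14 of 35116 such windows of all genes (0.0399%), and among the 29 androgen-induced genes with a window in KLK2 and KLK3 alone. The palindromic form, GAACA, any 3 bases and TGTTC, was in 8 windows (0.0228%) and in 0 of the 29. A match is a description of the letters in this window.

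SGK1, ABCC4, TIPARP and MPHOSPH9 were dimmer, and how far they differed depended on the pseudocount. With a pseudocount of 16 the differences were 1.07, 2.15, 1.29 and 1.21, beside 1.28 for KLK3. SGK1, a glucocorticoid- and androgen-induced kinase, measured 5.01, 3.06 and 5.15 in early G1, against 1.74, 1.45 and 1.78 in CDT+DHT. The difference was 2.75 ± 0.70 (adjusted p = 0.441), with early G1 replicate 2 the lowest of its group and still above CDT+DHT. ABCC4, an efflux pump for cyclic nucleotides and prostaglandins, measured 7.93, 5.04 and 6.13 in early G1, against 4.15, 2.93 and 0.62 in CDT+DHT, a difference of 3.80 ± 1.05 (adjusted p = 0.456). The CDT+DHT arrays of ABCC4 were themselves far apart, with replicate 3 the lowest. TIPARP, a mono-ADP-ribosyltransferase, differed by 2.51 ± 0.71 and MPHOSPH9, a centrosome protein, by 2.53 ± 0.78. Mean levels of SGK1 in late G1 (3.69 ± 0.76), early S (4.46 ± 0.79, n = 2), late S (3.90 ± 0.87) and G2/M (3.20 ± 0.69) all stood above those in CDT+DHT (1.65 ± 0.18) and CDT (1.26 ± 1.22). In the other direction, KLK4, the third kallikrein of the prostate, differed by -0.32 ± 0.55, and TSC22D3, a glucocorticoid-induced leucine zipper gene, by -0.61 ± 0.96, both with overlapping arrays. No test was made of TMPRSS2 and FKBP5, whose features each carried more than 1 gene symbol.

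Over the androgen-induced list, the median of early G1 minus the other arrests was 0.41, that of the other arrests minus CDT+DHT was 0.43 and that of CDT+DHT minus CDT was 0.33, beside 0.05, -0.04 and -0.10 for all genes. Of the 18 androgen-repressed genes measured, 10 lay above 0 in early G1 against CDT+DHT, with a median of 0.14. At an unadjusted p below 0.05, 2 were higher and 2 lower (5.22% and 2.85% of all genes). DPP4, a surface peptidase, measured 3.53, 2.68 and 3.74 in early G1, against 0.03, 2.29 and 0.02 in CDT+DHT (2.54 ± 0.81). DPP4 was dim, and with a pseudocount of 16 its difference was 0.55. NTS, the gene of neurotensin, measured 4.16, 1.05 and 3.69 in early G1, against 5.63, 4.99 and 5.17 in CDT+DHT (-2.30 ± 0.80). The chemokine receptor ACKR3 differed by -1.12 ± 0.53 and CAMK2N1, an inhibitor of a calmodulin-dependent kinase, by -0.84 ± 0.42, both without overlap. No member passed, and the median was -0.22 without early G1 replicate 3. With dim genes left out it was -0.48, with 1 of 8 members above 0, and the summed intensity of the list was 969.8 to 1175.0 in early G1, against 1368.8 to 1780.8 in CDT+DHT, without overlap. The direction of the repressed list thus depended on its dim members.

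Fatty acid synthesis genes (22 of 23 measured) had a median of 0.75, with 14 above 0. At an unadjusted p below 0.05, 8 were higher and 0 lower (5.22% and 2.85% of all genes). Without overlap, 8 were higher and 1 lower (7.16% and 8.71%). The higher members hold enzymes of elongation, desaturation and activation. ELOVL5, an elongase of polyunsaturated fatty acids, measured 6.84, 5.33 and 6.36 in early G1, against 3.59, 3.39 and 1.95 in CDT+DHT, a difference of 3.20 ± 0.83 (adjusted p = 0.441). SCD and ACSL1, given above, come next with GPAM, which starts glycerolipid synthesis. GPAM measured 4.04, 3.11 and 4.07 in early G1, against 1.56 to 1.63 in CDT+DHT (2.14 ± 0.72). The 3 arrays of CDT+DHT were close together in GPAM and all below early G1. GPAM was dim, and with a pseudocount of 16 its difference was 0.67. FASN, the fatty acid synthase itself, differed by 0.41, ACLY by -0.23 and the regulator SREBF1 by -0.63, none with an unadjusted p below 0.05, and these were chosen after their values had been seen. TECR, which completes elongation, measured 5.79, 6.93 and 7.10 in early G1, against 7.41, 7.58 and 7.53 in CDT+DHT (-0.90 ± 0.47). The list median was 0.32 without CDT+DHT replicate 3 and 1.18 without CDT+DHT replicate 2. It was 0.68 without both arrays that stood apart, with 12 of 22 above 0, and 0.35 with a pseudocount of 16.

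Of the sterol genes, 19 of 25 were measured, 11 lay above 0 and the median was 0.41. At an unadjusted p below 0.05, 3 were higher and 0 lower (5.22% and 2.85% of all genes). Without overlap, 3 were higher and 0 lower (7.16% and 8.71%). MSMO1, which removes methyl groups from sterols, measured 7.33, 5.38 and 6.73 in early G1, against 3.30, 4.80 and 2.21 in CDT+DHT. HMGCS1, an early enzyme of the mevalonate pathway, measured 7.51, 4.76 and 6.48 in early G1, against 4.18, 4.44 and 3.27 in CDT+DHT. The differences were 3.04 ± 0.90 (adjusted p = 0.456) and 2.29 ± 0.82 (adjusted p = 0.546), with early G1 replicate 2 close above the highest CDT+DHT array in both genes. INSIG1, which retains the sterol sensor in the endoplasmic reticulum, differed by 1.34 ± 0.58 and SQLE, the squalene epoxidase, by 1.27 ± 0.69. PMVK, also of the mevalonate pathway, differed by -0.75 ± 0.49 and TM7SF2, a sterol reductase, by -0.62 ± 0.66, with overlapping arrays. The list median ran from 0.28, without early G1 replicate 3, to 0.78, without early G1 replicate 2, and was 0.63 without both arrays that stood apart.

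The 250 bases before the starts of SCD, MSMO1 and HMGCS1 are shown because these 3 had small p-values and hold CCAAT, a promoter box that the factor NF-Y binds. SCD lies at chr10:100346983-100347232 on the plus strand, MSMO1 at chr4:165327419-165327668 on the plus strand and HMGCS1 at chr5:43313413-43313662 on the minus strand, the first of its windows in the table (RefSeq, GRCh38.p14). Capitals mark CCAAT on either strand, so that ATTGG is a match on the other one.
SCD: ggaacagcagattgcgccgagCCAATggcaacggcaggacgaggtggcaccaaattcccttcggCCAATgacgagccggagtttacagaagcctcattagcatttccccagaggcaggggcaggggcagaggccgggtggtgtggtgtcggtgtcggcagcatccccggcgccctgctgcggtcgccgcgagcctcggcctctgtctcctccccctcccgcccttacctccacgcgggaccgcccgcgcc
MSMO1: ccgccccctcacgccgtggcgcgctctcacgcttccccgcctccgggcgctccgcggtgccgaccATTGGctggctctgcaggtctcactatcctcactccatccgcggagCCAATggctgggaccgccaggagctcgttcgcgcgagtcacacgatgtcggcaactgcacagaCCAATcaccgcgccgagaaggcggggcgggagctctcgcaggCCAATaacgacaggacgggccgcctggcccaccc
HMGCS1: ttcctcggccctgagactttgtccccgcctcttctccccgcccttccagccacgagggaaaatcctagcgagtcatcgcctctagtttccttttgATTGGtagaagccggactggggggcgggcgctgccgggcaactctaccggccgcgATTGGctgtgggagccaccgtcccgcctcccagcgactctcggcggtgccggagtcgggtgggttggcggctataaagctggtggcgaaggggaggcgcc
There were 2 matches in SCD, 4 in MSMO1 and 2 in the HMGCS1 window shown. The other HMGCS1 window, at chr5:43313182-43313431, held 0. CCAAT was in 32.0% of the windows of all genes, in 77.3% of the 22 windows of the sterol genes, in 39.4% of the 33 of the fatty acid genes and in 21 of the 60 of the androgen-induced genes. Genes with several starts give several windows that can overlap.

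**Figure D3:**
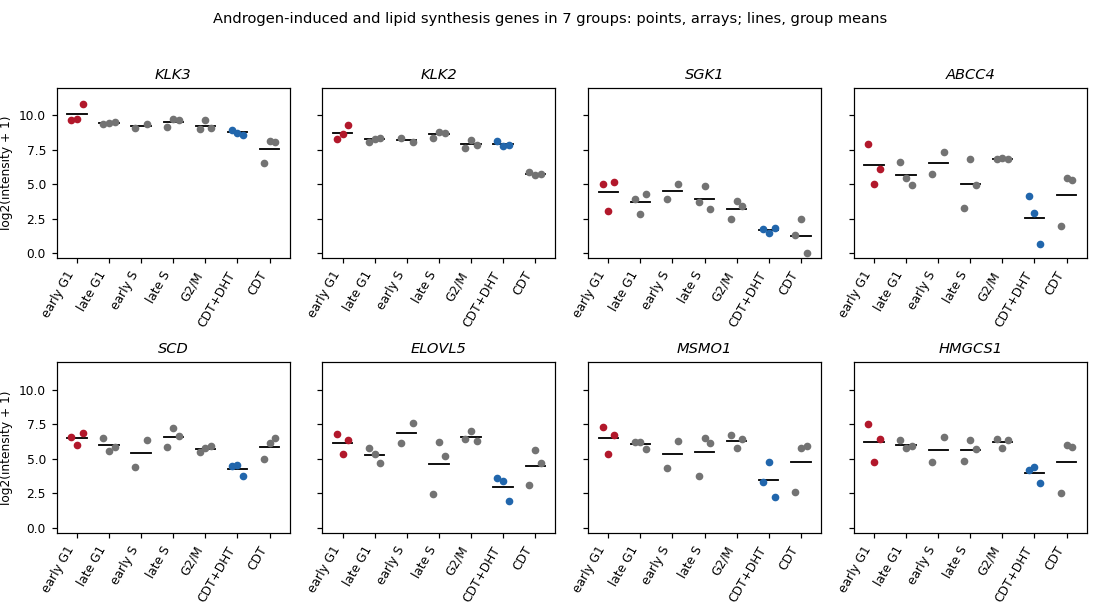
Levels (log2(intensity + 1)) of 4 androgen-induced genes (top) and 4 genes of fatty acid and sterol synthesis (bottom) in all 7 groups, with points for arrays and lines for group means. KLK2 and KLK3 are lowest in CDT (5.75 and 7.57), while ELOVL5, MSMO1 and HMGCS1 have their lowest means in CDT+DHT (2.98, 3.44 and 3.96), as has SCD (4.27).

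In SCD, ELOVL5, MSMO1 and HMGCS1, chosen by small p against the same CDT+DHT arrays, CDT+DHT had the lowest mean of the 7 groups. The mean of SCD was 6.48 ± 0.46 in the early G1 arrest, 5.99 ± 0.45 in the late G1 arrest, 5.40 ± 1.39 in early S (n = 2), 6.58 ± 0.70 in late S, 5.74 ± 0.24 in G2/M, 4.27 ± 0.44 in CDT+DHT and 5.88 ± 0.81 in CDT. Early G1 minus the other arrests was 0.56 ± 0.46 for SCD, 0.34 ± 0.66 for ELOVL5, 0.68 ± 0.72 for MSMO1 and 0.36 ± 0.66 for HMGCS1, each within 2 SE of 0. CDT+DHT minus CDT was -1.61 ± 0.58 for SCD, -1.53 ± 0.83 for ELOVL5, -1.33 ± 0.90 for MSMO1 and -0.83 ± 0.82 for HMGCS1 (adjusted p = 0.696 to 0.874). Over the fatty acid list, the medians were 0.20 for early G1 minus the other arrests, 0.77 for the other arrests minus CDT+DHT and -0.56 for CDT+DHT minus CDT. Those of the sterol list, in the same order, were 0.35, 0.07 and 0.47, with CDT+DHT above CDT, unlike in MSMO1 and HMGCS1.

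The cyclin D, CDK4/6 and RB genes (33 of 34 measured), on which the drug acts at the protein level, had a median of -0.01, with 16 above 0. At an unadjusted p below 0.05, 3 were higher and 1 lower (5.22% and 2.85% of all genes). CCND1, the cyclin D1 gene, measured 6.02, 6.58 and 6.98 in early G1, against 5.43, 5.41 and 4.01 in CDT+DHT, a difference of 1.57 ± 0.70 (adjusted p = 0.586) without overlap. Elsewhere CCND1 measured 5.7 to 6.8 in late G1, 5.3 and 7.1 in early S and 3.3 to 6.1 in late S. It measured 6.6 to 6.7 in G2/M and 5.3 to 7.0 in CDT, which had no drug. CDK4 measured 6.43, 5.19 and 6.95 in early G1, against 7.87, 7.13 and 5.36 in CDT+DHT (-0.60 ± 0.72). CDK6, which was dim, differed by 0.04 ± 0.84, RB1 by 0.53 ± 0.66, E2F1 by -0.69 ± 0.58 and CCNE1, the cyclin E1 gene, by -0.01 ± 0.60, all with overlapping arrays. LIN54 and LIN52, of the complex that joins RB relatives to cell cycle promoters, differed by 1.37 ± 0.58 and 1.39 ± 0.61. Of the CDK inhibitors, CDKN2A differed by -1.51 ± 0.81 and CDKN2D by -0.82 ± 0.52, both without overlap.

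CDKN1A, which encodes the CDK inhibitor p21, measured 4.25, 5.16 and 6.23 in early G1, against 6.73, 6.46 and 6.12 in CDT+DHT (-1.22 ± 0.59, adjusted p = 0.618), with overlap through replicate 3 on both sides. Its mean was 5.21 ± 0.99 in the early G1 arrest, 5.99 ± 0.28 in the late G1 arrest, 8.49 ± 0.08 in early S (n = 2), 8.85 ± 0.48 in late S, 7.73 ± 0.35 in G2/M, 6.43 ± 0.31 in CDT+DHT and 4.98 ± 1.23 in CDT. Early G1 minus the other arrests was -2.55 ± 0.47 for CDKN1A (adjusted p = 0.294). FOXM1, a factor that drives mitotic genes, measured 4.14, 5.00 and 5.72 in early G1, against 6.74, 6.15 and 5.90 in CDT+DHT, a difference of -1.31 ± 0.52 (adjusted p = 0.567) without overlap.

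Replication genes (48 of 49 measured) divided evenly, with 24 above 0 and a median of 0.02. At an unadjusted p below 0.05, 5 were higher and 4 lower (5.22% and 2.85% of all genes). Without overlap, 3 were higher and 5 lower (7.16% and 8.71%). RRM2, the regulated subunit of ribonucleotide reductase, measured 4.27, 4.20 and 5.61 in early G1, against 6.22, 6.18 and 5.75 in CDT+DHT. TYMS, the thymidylate synthase, measured 6.21, 5.82 and 6.99 in early G1, against 7.68, 7.75 and 7.12 in CDT+DHT. The differences were -1.36 ± 0.49 (adjusted p = 0.546) and -1.17 ± 0.46 (adjusted p = 0.567), and replicate 3 of early G1 came close to CDT+DHT in both. Both genes were also lower in early G1 than in the mean of the other arrests, with differences of -1.39 ± 0.39 for RRM2 and -1.18 ± 0.37 for TYMS (adjusted p = 0.999 for both). Their means in late G1 were lower still, 2.94 ± 0.57 for RRM2 and 5.82 ± 0.12 for TYMS, beside 4.69 ± 0.79 and 6.34 ± 0.59 in early G1.

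Other replication genes lay the other way. RFC3, of the clamp loader, measured 6.08, 2.74 and 4.83 in early G1, against 2.08, 2.20 and 1.49 in CDT+DHT (2.62 ± 0.81). POLA1, the catalytic subunit of polymerase alpha, differed by 1.90 ± 0.62, ORC6, of the origin recognition complex, by 1.55 ± 0.57 and GMNN, the licensing inhibitor geminin, by 2.02 ± 0.92. With a pseudocount of 16 the differences were 1.18 for RFC3, 1.09 for POLA1, 1.14 for ORC6 and 0.71 for GMNN. Those of RRM2 and TYMS were then -0.96 and -1.03. PCNA, the replication clamp, differed by -0.51 ± 0.49 and MCM5, of the replicative helicase, by -0.04 ± 0.68. The replication genes had thus no common direction, and their median was -0.21 without early G1 replicate 3 and 0.57 without early G1 replicate 2.

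Mitotic genes (58 of 59 measured) had a median of 0.89 with 43 above 0, but the single genes pointed both ways. At an unadjusted p below 0.05, 8 were higher and 3 lower (5.22% and 2.85% of all genes). Without overlap, 15 were higher and 5 lower (7.16% and 8.71%). Over this list the median was 0.19 for early G1 minus the other arrests and 0.60 for the other arrests minus CDT+DHT. That of CDT+DHT minus CDT was -0.26, beside 0.05, -0.04 and -0.10 for all genes in the same order. KIF11, the kinesin that separates spindle poles, measured 5.47, 3.51 and 3.75 in early G1, against 1.58, 2.63 and 1.58 in CDT+DHT (2.31 ± 0.73, adjusted p = 0.491). CENPE, a kinetochore kinesin, measured 5.76, 3.43 and 4.12 in early G1, against 2.39, 3.08 and 1.17 in CDT+DHT (2.23 ± 0.76, adjusted p = 0.542). Replicate 1 was the highest early G1 array in both genes. NUSAP1 and KIF4A, of the spindle and chromosome arms, differed by 2.07 ± 0.78 and 2.15 ± 0.87, without overlap. Of the 58 genes, 11 had a mean of at least 5 over the 6 arrays, and KIF11, CENPE, NUSAP1 and KIF4A did not. With a pseudocount of 16 the differences were 0.90 for KIF11, 0.94 for CENPE, 1.355 for NUSAP1 and 0.66 for KIF4A.

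PLK1, the polo-like kinase of mitotic entry, measured 4.60, 5.07 and 5.92 in early G1, against 6.94, 6.81 and 6.53 in CDT+DHT. BIRC5, which encodes survivin, measured 6.59, 6.78 and 7.38 in early G1, against 8.28, 8.11 and 7.95 in CDT+DHT. The differences were -1.56 ± 0.55 (adjusted p = 0.546) and -1.20 ± 0.46 (adjusted p = 0.563), with every early G1 array below every CDT+DHT array. With a pseudocount of 16 they were -1.23 and -1.10, farther from 0 than those of KIF11 and CENPE. MKI67, the proliferation marker Ki-67, measured 4.56, 3.06 and 3.10 in early G1, against 1.91, 2.32 and 2.69 in CDT+DHT (1.26 ± 0.76). CDK1 measured 5.80, 1.75 and 4.26 in early G1, against 3.21, 2.35 and 2.03 in CDT+DHT (1.41 ± 0.80), with overlap. With a pseudocount of 16 the differences were 0.47 for MKI67 and 0.75 for CDK1. CCNB1, the cyclin B1 gene, differed by -0.09 ± 0.48 and CCNA2, the cyclin A2 gene, by 0.29 ± 1.22.

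The mitotic median depended on single arrays. It was 0.40 without early G1 replicate 1 and 1.43 without early G1 replicate 2, and the members higher at an unadjusted p below 0.05 numbered 1 without CDT+DHT replicate 3, 2 without early G1 replicate 1 and 22 without early G1 replicate 2. Over all 18417 genes the higher ones numbered 398, 524 and 1613 under these settings, so that the counts of all genes moved the same way. With a pseudocount of 16 the mitotic median was 0.42. Without both arrays that stood apart, which keeps early G1 replicate 1, the median was 1.12, with 46 of 58 above 0. The mean level over the list was 5.11, 3.43 and 4.73 in the early G1 arrays, against 4.01, 4.01 and 3.19 in the CDT+DHT arrays, so that the early G1 arrays did not lie on one side. The mean level over the androgen-induced list was 5.00, 4.30 and 5.19 in early G1, against 3.85, 3.92 and 3.22 in CDT+DHT, and there the arrays did not overlap.

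**Figure D4:**
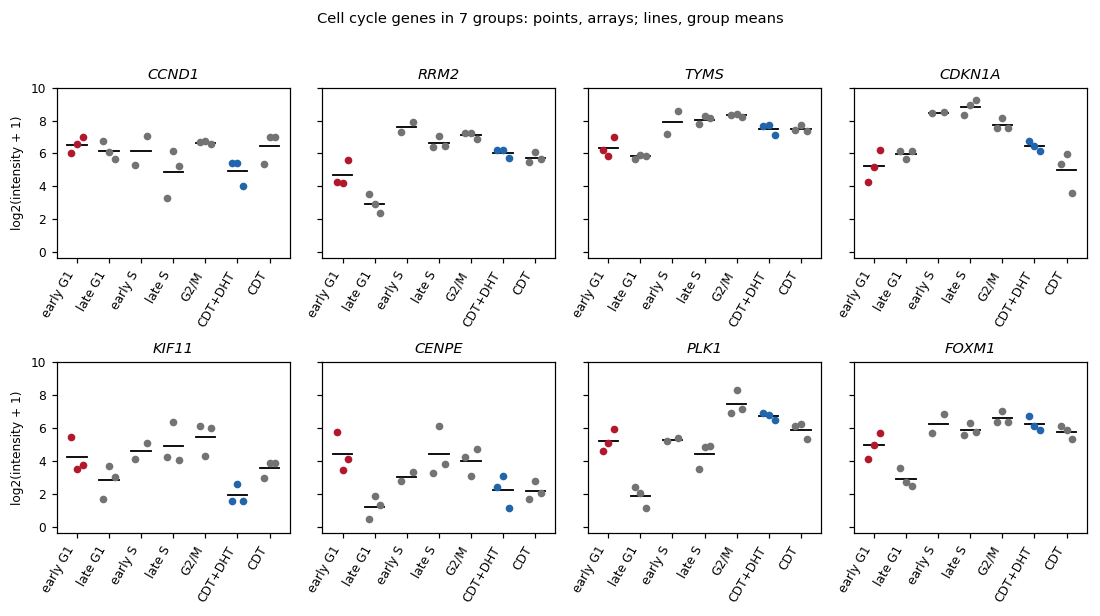
Levels (log2(intensity + 1)) of 8 cell cycle genes in all 7 groups, with points for arrays and lines for group means. RRM2, TYMS, CDKN1A and FOXM1 have lower means in early G1 (4.69, 6.34, 5.21 and 4.95) than in CDT+DHT (6.05, 7.51, 6.43 and 6.26), while CCND1, KIF11 and CENPE have higher ones.

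Replication-dependent histone genes (44 of 49 measured) had a median of -0.24, with 18 above 0. At an unadjusted p below 0.05, 1 was higher and 0 lower (5.22% and 2.85% of all genes). That gene, H3C8, was dim in early G1 (1.45, 3.30 and 2.73) and measured 0.01, 0.02 and 0.00 in CDT+DHT, and histone genes of this kind share sequence, so that single ones are uncertain. The p53 targets (25 of 27 measured) had a median of 0.21, with 16 above 0, and the median was -0.31 without CDT+DHT replicate 3. At an unadjusted p below 0.05, 1 was higher (5.22% of all genes), PMAIP1, which encodes a cell death protein (1.55 ± 0.71). MDM2, the p53 antagonist, measured 5.18, 3.97 and 4.46 in early G1, against 2.21, 2.80 and 3.43 in CDT+DHT (1.73 ± 0.83), and rose in the other arrests against CDT+DHT (3.19 ± 0.67, adjusted p = 0.0454). The tubulin genes (14 of 15 measured) had a median of -0.45, and TUBA1A differed by -0.99 ± 0.42, with close paralogues that the probes may share.

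Lists with medians below 0 held secretory, lysosomal and early response genes. Brighter genes as a class also lay lower, with a median difference of -0.261 at means of 5 to 7 and -0.235 above 7. Of the lysosome, glycolysis and tubulin genes, 16 of 26, 16 of 26 and 9 of 14 had a mean of at least 5. In the immediate early and NF-kB lists it was 10 of 42 and 4 of 28. The part of this shift in the list medians was not tested. Of the 42 immediate early and serum response genes, 15 lay above 0, with a median of -0.29. At an unadjusted p below 0.05, 1 was higher and 4 lower (5.22% and 2.85% of all genes). Without overlap, 2 were higher and 10 lower (7.16% and 8.71%). ID3, which blocks DNA binding by helix-loop-helix factors, measured 3.47, 4.08 and 3.97 in early G1, against 5.87, 5.63 and 6.17 in CDT+DHT, a difference of -2.05 ± 0.45 (adjusted p = 0.422). The ID3 arrays were tight in both groups and far apart. SPRY4, a feedback inhibitor of receptor tyrosine kinases, measured 0.27, 0.68 and 2.75 in early G1, against 2.98, 3.09 and 3.78 in CDT+DHT (-2.05 ± 0.70). SPRY4 was dim, and with a pseudocount of 16 its difference was -0.47, beside -1.34 for ID3. JUN differed by -0.99 ± 0.45, JUNB by -1.23 ± 0.58, and VCL, the focal adhesion protein vinculin, by 1.68 ± 0.57. With 1 array left out, the list median lay between -0.55, without CDT+DHT replicate 3, and -0.08, without CDT+DHT replicate 1, and it was -0.54 without both arrays that stood apart.

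Of the 28 NF-kB inflammatory and secretory genes, 8 lay above 0, with a median of -0.33. At an unadjusted p below 0.05, 1 was higher and 3 lower (5.22% and 2.85% of all genes). The chemokine gene CCL20 measured 1.92, 0.55 and 0.16 in early G1, against 4.11, 4.18 and 3.69 in CDT+DHT, a difference of -3.12 ± 0.68 (adjusted p = 0.422) between groups that did not overlap. CCL20 was dim, and with a pseudocount of 16 its difference was -0.86. NFKBIA, the inhibitor that NF-kB itself induces, measured 6.97, 7.43 and 7.94 in early G1, against 8.90, 8.79 and 8.52 in CDT+DHT (-1.29 ± 0.41, adjusted p = 0.491). CDT+DHT minus CDT was 1.66 ± 0.41 for NFKBIA. IL1B, an inflammatory cytokine, differed by 1.17 ± 0.54 with overlap.

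The lysosome genes (26 of 30 measured) had a median of -0.53, with 6 above 0. At an unadjusted p below 0.05, 1 was higher and 3 lower (5.22% and 2.85% of all genes). GUSB, a lysosomal glucuronidase, measured 4.99, 5.36 and 5.94 in early G1, against 7.21, 7.11 and 6.50 in CDT+DHT (-1.51 ± 0.56). SQSTM1, the autophagy receptor p62, differed by -1.31 ± 0.53 and CTSB, the protease cathepsin B, by -1.03 ± 0.48, both without overlap, while ATP6V1A, of the proton pump, differed by 1.99 ± 0.85. The lysosome median was -0.21 without CDT+DHT replicate 1 and -0.84 without early G1 replicate 3. Over this list the other arrests minus CDT+DHT had a median of -0.63 and early G1 minus the other arrests one of 0.27. ERBB2, the HER2 receptor gene, measured 3.31, 4.89 and 5.23 in early G1, against 6.21, 6.08 and 5.75 in CDT+DHT (-1.54 ± 0.52), and fell in the other arrests against CDT+DHT by 2.14 (adjusted p = 0.0375). ENO2, a neuronal enolase in both the glycolysis and the neuroendocrine list, measured 4.32, 4.95 and 5.92 in early G1, against 7.31, 7.06 and 6.70 in CDT+DHT (-1.96 ± 0.58), and fell there by 2.28 (adjusted p = 0.0454). The medians were -0.29 for glycolysis, which was -0.66 without early G1 replicate 3 and -0.14 without early G1 replicate 2, and -0.48 for the neuroendocrine list, which was -0.19 without early G1 replicate 2.

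The medians of the remaining lists moved with single arrays. Interferon-stimulated genes had a median of 0.02 (17 of 33 above 0), antigen presentation -0.20 (3 of 12), amino acid and unfolded protein stress -0.13 (12 of 28), growth factor receptors -0.06 (10 of 21), and LXR, retinoid and thyroid hormone targets -0.09 (10 of 23). Within these lists RIGI, a sensor of viral RNA, differed by 2.21 ± 0.84, MTHFD2, of mitochondrial folate metabolism, by 2.19 ± 0.81, CRABP2, a carrier of retinoic acid, by 2.02 ± 0.73 and the sterol exporter ABCG1 by -1.70 ± 0.71. Without CDT+DHT replicate 3 the median was -0.56 for growth factor receptors, -0.60 for the LXR, retinoid and thyroid hormone targets and -0.32 for amino acid stress, and without early G1 replicate 1 it was 0.35 for growth factor receptors. That of antigen presentation was 0.02 without early G1 replicate 2. Medians of the markers were -0.09 for luminal, -0.02 for basal, -0.26 for stromal and 0.01 for leukocyte genes. Without CDT+DHT replicate 3 they were -0.33 for luminal and -0.41 for leukocyte genes. The luminal median was 0.35 without CDT+DHT replicate 1, and the leukocyte median 0.32 without early G1 replicate 2. Of the stromal genes 1 was lower at an unadjusted p below 0.05 (2.85% of all genes), POSTN (-1.48 ± 0.69).

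**Figure D5:**
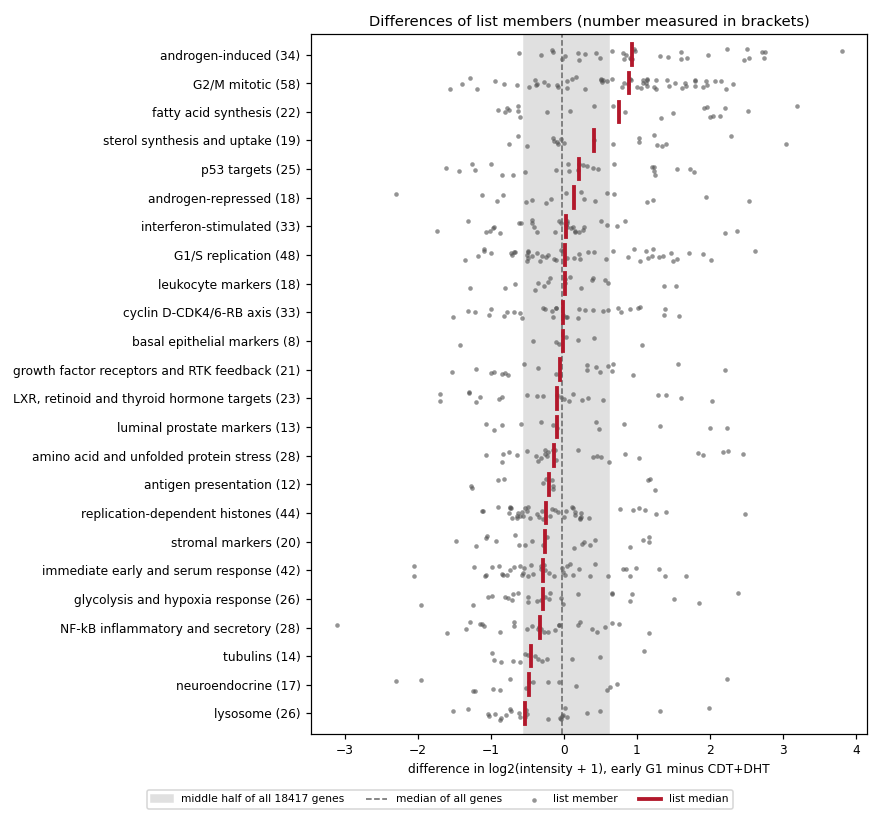
Differences in log2(intensity + 1), early G1 minus CDT+DHT, of the measured members of 24 gene lists (points) with the list median (red bar), ordered by median, over the quartile range of all 18417 genes (grey band, -0.54 to 0.61) and their median (dashed). The band describes single genes and is no measure for list medians, of which those of the androgen-induced (0.93), mitotic (0.89) and fatty acid (0.75) lists are the highest.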

How the data were processed

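RNA of LNCaP cells was extracted with Trizol, amplified and biotin-labelled with NuGEN kits and hybridised to Affymetrix gene arrays, per the labels' protocols. The deposited values were linear probe set intensities from Affymetrix Expression Console 1.1, as the submitters' processing notes have it. For the authors' probe summary and normalization, the method is not given in the sources used here.

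Features numbered 33297. The platform annotation gave 1 gene symbol to 19460, several to 1754 and was without an entry for 12083; only the first kind was tested, and 19429 of them matched RefSeq by Entrez ID for current names. Of a gene's several features (769 genes) the brightest over all arrays was taken, which left 18417 genes. Tests used limma 3.58.1 in R 4.3.3 on log2(intensity + 1), with lmFit and eBayes at default settings, 1 coefficient for each of 7 groups, two-sided p-values, Benjamini-Hochberg adjustment and a threshold of 0.05. The number of arrays limits the precision. The script was tested on simulated data.

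The comparisons were early G1 against CDT+DHT, early G1 against the mean of the other 4 arrests, these against CDT+DHT, and CDT+DHT against CDT. The groups, members and 24 gene lists were chosen with earlier results of these data known. Named were, per direction, 10 genes with a mean of at least 5 over the 6 arrays, no overlap and the smallest p (since none passed), up to 4 members of a list on the side of its median and 2 on the other by p, and a fixed set of cell cycle, androgen and sterol genes. Some listed genes were not analysed here. Promoter windows came from RefSeq tables for GRCh38.p14. Alternatives were quantile normalization, array medians subtracted, a pseudocount of 16, dim genes left out, the mean of a gene's features, every feature tested, a trended and robust prior, array weights, a fit without the groups not compared, leaving out each array, and a block for the replicate number. Leaving out early G1 replicate 2 and CDT+DHT replicate 3 together was added after seeing the data.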

Additional observations from a re-analysis of the deposited data

How the results depend on the processing

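In early G1 against CDT+DHT, 0 genes passed, and the count was 1 with array medians subtracted, 1 with dim genes left out, 1 with the trended and robust prior, 9 with a pseudocount of 16 and 10 with array weights. It was 0 in the other alternatives, leaving out any 1 array included. The unadjusted split was 962 higher and 524 lower, and 971 and 830 with array medians subtracted, 1023 and 756 with quantile normalization and 858 and 997 with the pseudocount of 16. It was 1613 and 327 without early G1 replicate 2, 654 and 1063 without early G1 replicate 3, and 398 and 465 without CDT+DHT replicate 3. The median of all genes, -0.03, was -0.09 and -0.10 under these scalings. In early G1 against the other arrests the count was 9 with the pseudocount of 16, 2 with dim genes left out and 3 with the trended prior. The 55 genes in the other arrests against CDT+DHT became 165 with quantile normalization, 119 with array medians subtracted, 325 with the pseudocount of 16, 201 with dim genes left out, 33 with every feature, 381 with the trended prior, 1924 with array weights, 83 with only the compared groups, 0 without both arrays that stood apart, and 0 to 125 with 1 array left out. In CDT+DHT against CDT the count was 4 with the pseudocount of 16, 2 with the trended prior, 12 with array weights and 0 to 2 with 1 array left out.

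Deviations from group means of arrays with the same replicate number in early G1 and CDT+DHT correlated at 0.125, -0.14 and -0.147. The highest value, 0.244, was between early G1 replicate 2 and CDT+DHT replicate 3, which stood apart. Deviations within so few arrays depend on each other, so these values cannot settle if samples were paired. The other groups were not compared in this way. With the replicate number as a block, 0 genes passed in early G1 against CDT+DHT and 1420 had an unadjusted p below 0.05. The count in the other arrests against CDT+DHT was 2 with the block, and 4 with the block and only the compared groups. The cause of these changes was not tested. In early G1 against CDT+DHT no gene passed in the main fit, so there was no call whose sign could reverse. The 20 brighter genes with the smallest p kept the sign of their difference in every alternative. They had been chosen without overlap of the arrays, so leaving out an array or changing the pseudocount could not reverse it. For the genes that passed in the other arrests against CDT+DHT, signs were not compared between alternatives. With the pseudocount of 16 the medians of further lists also moved by over 1.5 times. Among these were the p53 (0.08), immediate early (-0.13), NF-kB (-0.11), neuroendocrine (-0.18), histone (-0.14), stromal (-0.10) and androgen-repressed (0.04) lists. Precision was limited by 3 arrays a group and, for dim genes, by signal: the median SD within groups was 1.04 below a mean of 2 and 0.44 above 7.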

Other observations

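Genes on the 2 sides of the comparison differed in length. The 962 genes higher in early G1 at an unadjusted p below 0.05 had a median genomic span of 53.03 kb in RefSeq, the 524 lower ones one of 14.57 kb and all genes one of 24.48 kb. Among the brighter genes the medians were 36.77 kb for the 122 higher, 12.77 kb for the 159 lower and 18.08 kb for all 3266. These are values from the same contrast and carry no test.

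With array weights, an alternative in which CLU, CCL20 and SEC1P passed as lower in early G1 than in CDT+DHT, 7 genes passed as higher: NCAPD3, a condensin subunit (3.14 ± 0.50, adjusted p = 0.0177), RNF20 (2.54 ± 0.46, adjusted p = 0.0406), ZNF143, a zinc finger factor (3.42 ± 0.59, adjusted p = 0.0363), PAFAH1B2, PTCD3, TBX15 and ZNF564. Of these RNF20, CLU and CCL20 are among the genes named by rule, and the others were named after their values had been seen.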
